A study of Mus musculus with 16 samples.

Results

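The genes examined here are 7 transcripts that glucocorticoids are known to induce, namely Fkbp5, Tsc22d3, Per1, Zbtb16, Sgk1, Dusp1 and Klf9, in RNA sequencing of isolated mouse pancreatic islets. They were taken by gene symbol from the 2 deposited expression tables, and all 7 were found in both, out of 17361 genes in the table of knockout islets and 17318 in the table of virus-infused islets, with 16815 genes in common. The set was chosen by known induction with the levels of these genes in the same FPKM tables in view, so their values and fold changes are given as a description, without a test of their own. The tables hold 16 libraries in 4 groups of 4. Flox mice carry loxP sites around exon 2 of Vtcn1, the gene of the immune checkpoint molecule B7-H4, on a C57BL/6J background. B7-H4 cKO mice carry the same floxed alleles and the Rip-Cre transgene, B6.Cg-Tg(Ins2-cre)25Mgn/J, whose Cre recombinase is driven by the rat insulin II promoter, and both groups ate a normal chow diet. The other 2 groups ate a high-fat diet for 8 weeks from 6 weeks of age and then received, through the pancreatic duct, a control virus (Ctrl) or an adeno-associated virus that carries B7-H4 with ZSGreen under the rat insulin II promoter (OE). The series describes these mice as wild type and the study's methods as Flox. No deposited group carries Rip-Cre without the floxed alleles, so the transgene and the deletion cannot be told apart. No library was labelled with a steroid treatment, a time of collection or the number of mice behind it.

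Glucocorticoids are adrenal steroids that bind the glucocorticoid receptor, which waits in the cytosol with heat shock proteins and immunophilin co-chaperones and moves to the nucleus when the hormone binds. There it binds DNA and raises or lowers the transcription of nearby genes. The 7 genes respond within hours in many tissues and include a feedback inhibitor of the receptor (Fkbp5), an anti-inflammatory mediator (Tsc22d3), 3 regulators of transcription (Zbtb16, Klf9 and Per1), a kinase (Sgk1) and a phosphatase (Dusp1). Glucocorticoid secretion follows the time of day and stress, and in β cells the hormone is known to alter insulin secretion. Several of these genes also answer other signals. Per1 belongs to the circadian clock, and Dusp1 is an immediate early gene of growth factor, cAMP and stress signalling.

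The DNA just upstream of the transcription start was read for these genes because they share an inducer, and the 4 stretches that held a motif are printed. RefSeq windows of 250 bases before each start, in build GRCm38.p6, the assembly known as mm10, were matched by symbol for 6 of the 7 genes, all but Zbtb16, in 14 windows. The motifs searched were 3 palindromes, each of which reads the same on both strands. The consensus glucocorticoid response element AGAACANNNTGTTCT was present in 3 of the 32851 RefSeq windows of all genes (0.00913%), and Sgk1 was the single member with a match. The cAMP response element TGACGTCA was found in 1.55% of windows, and in Dusp1 among the members. The E-box CACGTG, which clock proteins and other helix-loop-helix factors bind, was found in 6.02% of windows and in windows of 6.86% of genes. It was present in 4 of the 6 members with a window, Sgk1, Dusp1, Fkbp5 and Per1. No 2 matches overlapped. The stretches below run 5′ to 3′ on the strand of the gene, leave out bases inside annotated exons, and show the motifs in capitals.
Sgk1, chr10:21993640-21993889, plus strand: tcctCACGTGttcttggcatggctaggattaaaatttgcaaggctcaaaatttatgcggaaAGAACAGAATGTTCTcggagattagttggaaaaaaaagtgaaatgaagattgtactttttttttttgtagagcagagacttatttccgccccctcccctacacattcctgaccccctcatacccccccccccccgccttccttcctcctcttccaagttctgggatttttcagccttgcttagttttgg
Dusp1, chr17:26508520-26508722, minus strand: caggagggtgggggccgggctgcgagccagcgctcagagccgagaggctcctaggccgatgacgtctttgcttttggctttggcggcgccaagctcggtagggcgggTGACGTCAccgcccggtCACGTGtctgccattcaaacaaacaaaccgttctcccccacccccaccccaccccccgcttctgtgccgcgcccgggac
Fkbp5, chr17:28486150-28486399, minus strand: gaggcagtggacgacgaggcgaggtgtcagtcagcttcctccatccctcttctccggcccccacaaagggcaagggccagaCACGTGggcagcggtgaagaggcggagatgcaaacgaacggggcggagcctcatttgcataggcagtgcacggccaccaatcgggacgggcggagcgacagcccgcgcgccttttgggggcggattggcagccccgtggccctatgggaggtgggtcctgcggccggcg
Per1, chr11:69098699-69098947, plus strand: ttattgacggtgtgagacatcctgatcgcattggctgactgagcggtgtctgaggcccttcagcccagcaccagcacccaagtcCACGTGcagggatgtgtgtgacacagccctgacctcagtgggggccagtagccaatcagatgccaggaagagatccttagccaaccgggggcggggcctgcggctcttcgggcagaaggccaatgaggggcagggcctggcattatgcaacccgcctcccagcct
In Sgk1 the response element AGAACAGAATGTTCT lay at chr10:21993701-21993715, 189 bases upstream of the start at position 21993890, which is a start inside the gene, and the E-box lay 246 bases upstream of it. In Dusp1 the cAMP response element began 143 bases and the E-box 126 bases upstream of the start. The E-box of Fkbp5 began 169 bases and that of Per1 166 bases upstream. A match of letters is a description of the window and not a binding site, and receptor binding was not measured here.

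Before the results, 3 libraries need naming. In the chow-fed table, the library labelled Flox16 stood with the cKO libraries for genes that separated them from the other Flox libraries by a wide margin. Tph1, which encodes tryptophan hydroxylase 1 and was picked after its values were seen, read 112 FPKM in Flox16, 116 to 150 in the 4 cKO libraries and 0.0318 to 0.0885 in Flox17, Flox20 and Flox21. Crispld2, a secreted protein, split the same way, at 11.5 to 20.3 FPKM in cKO, 24.8 FPKM in Flox16 and 0.216, 0.823 and 1.05 FPKM in Flox17, Flox20 and Flox21. The groups were left as labelled, and each member is given with and without Flox16. In the table of the high-fat diet, Ctrl2 and Ctrl3 held 55.6% and 71.6% of their summed FPKM in 18 pancreatic acinar genes, against 5.38% in Ctrl1, 2.10% in Ctrl5 and 10.8% to 14.0% in the OE libraries. The acinar share was 34.8% to 44.3% in cKO and 26.5%, 34.0%, 10.1% and 7.06% in Flox16, Flox17, Flox20 and Flox21. In Ctrl3 the 10 β-cell markers made up 4.38% of the sum, against 19.1% to 55.1% in every other library. No acinar or β-cell marker was at 0 in any library. In such bulk samples fewer endocrine cells and less RNA per cell cannot be told apart. The part of the acinar share in the results below was examined only by the fits that include it as a term or leave Ctrl2 and Ctrl3 out. Ctrl1 and Ctrl5 also differed from OE in other markers. Endothelial markers summed to 428 and 679 FPKM in them, against 187 to 234 in OE. Macrophage markers summed to 163 and 540 FPKM, against 86.2 to 111 in OE. Alpha-cell markers made up 3.48% and 13.6% of the sum, against 3.68% to 4.35% in OE. Fits without Ctrl2 and Ctrl3 therefore do not even out cell composition. Vtcn1 was 40.0 to 128 FPKM in OE and 0.0636 to 0.371 in Ctrl, and it was called higher in OE (log2 fold change 6.53, SE 0.46, adjusted p = 5.48e-08, limma). In the chow-fed table Vtcn1 was at most 0.216 FPKM in any library, and no difference was detectable at this depth. Values are FPKM, read fragments scaled to transcript length and to the mapped fragments of the library, so levels of different genes can be compared per length within a library.

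Fkbp5, an immunophilin that lowers the affinity of the receptor for hormone and is itself among the genes the receptor induces most, was 10.9, 8.01, 13.1 and 8.07 FPKM in cKO8, cKO9, cKO12 and cKO38, and 13.4, 30.2, 60.2 and 60.4 FPKM in Flox16, Flox17, Flox20 and Flox21. All 4 cKO libraries lay below all 4 Flox libraries, but Flox16 lay close to cKO12, the highest of them. The group means were 10.01 ± 2.46 FPKM in cKO and 41.0 ± 23.3 in Flox (SD, n = 4), a log2 fold change of -1.78 (SE 0.51) on the log2(FPKM + 0.5) scale that all fold changes here use. Without Flox16 it was -2.23 (SE 0.24). In the table of the high-fat diet Fkbp5 was 14.7, 6.55, 3.06 and 21.8 FPKM in Ctrl1, Ctrl2, Ctrl3 and Ctrl5, and 13.8, 22.1, 18.5 and 21.3 in OE1 to OE4. The 2 acinar-rich libraries were the lowest, and Ctrl5 lay among the OE libraries. The log2 fold change of OE against Ctrl was 0.99 (SE 0.53), and 0.05 (SE 0.22) without Ctrl2 and Ctrl3.

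**Figure D1:**
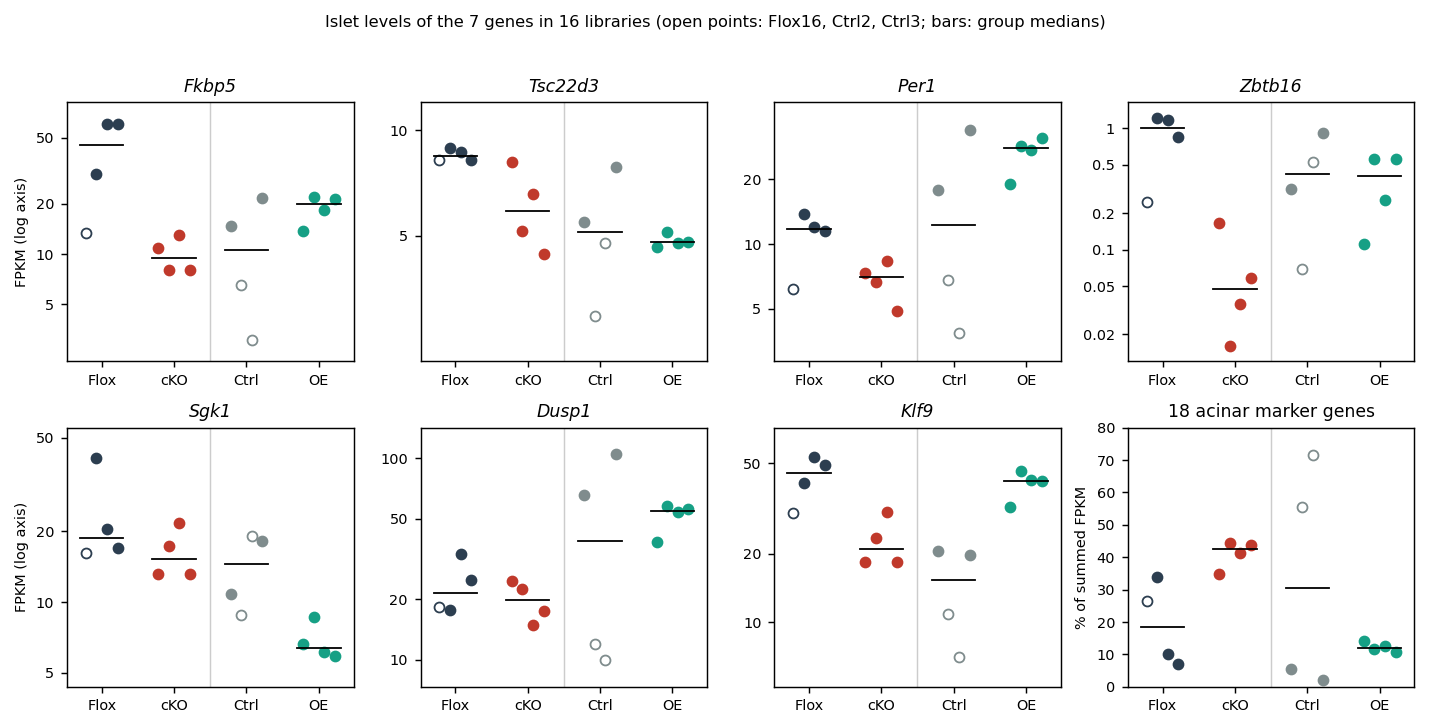
Level of each of the 7 genes in FPKM (log axes, which differ between panels) in the 16 libraries by group, with group medians as bars and the acinar marker share, in percent of summed FPKM on a linear axis, in the last panel; open points mark Flox16, Ctrl2 and Ctrl3. Fkbp5 lies between 8.01 and 13.1 FPKM in cKO and between 30.2 and 60.4 in the Flox libraries other than Flox16, and Klf9 lies higher in every OE library than in any Ctrl library.

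Tsc22d3 encodes GILZ, a leucine zipper protein that carries part of the anti-inflammatory action of glucocorticoids. It was 8.14, 5.15, 6.59 and 4.44 FPKM in cKO8, cKO9, cKO12 and cKO38, and 8.25, 8.90, 8.70 and 8.22 FPKM in Flox16, Flox17, Flox20 and Flox21. The Flox libraries were within 1.08-fold of each other, and the groups did not overlap, although cKO8 came close to the lowest Flox library. The log2 fold change was -0.49 (SE 0.19), or -0.50 (SE 0.22) without Flox16. On the high-fat diet the gene was 5.47, 2.96, 4.78 and 7.86 FPKM in Ctrl1, Ctrl2, Ctrl3 and Ctrl5 and between 4.65 and 5.13 in OE. The OE libraries lay inside the range of Ctrl, and the log2 fold change was -0.04 (SE 0.43).

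Zbtb16 encodes PLZF, a zinc finger repressor that is nearly silent in many cells until a glucocorticoid is present. Its level was 0.165, 0.0162, 0.0355 and 0.0584 FPKM in cKO8, cKO9, cKO12 and cKO38, and 0.248, 1.21, 1.18 and 0.841 FPKM in Flox16, Flox17, Flox20 and Flox21. All cKO libraries lay below all Flox libraries, and Flox16 lay nearer to cKO8 than to the other Flox libraries. The lowest values of each library come in equal steps, and in these steps Zbtb16 stood at 41, 4, 9 and 14 in cKO and at 64, 309, 322 and 220 in Flox. With a mean under 0.5 FPKM over the 8 libraries it was not tested with all of them. Its log2 fold change was -1.20 (SE 0.25) when every gene was kept, which understates the ratio of values this far below the added 0.5, and -1.47 (SE 0.20) without Flox16. On the high-fat diet it was 0.318, 0.0688, 0.529 and 0.922 FPKM in Ctrl1, Ctrl2, Ctrl3 and Ctrl5 and 0.112, 0.558, 0.255 and 0.555 in OE1 to OE4. These ranges overlapped, and the log2 fold change was -0.10 (SE 0.30) with every gene kept.

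Klf9, a Krüppel-like repressor of transcription that is an immediate target of the receptor in brain and liver, was 18.4, 23.5, 30.4 and 18.5 FPKM in cKO8, cKO9, cKO12 and cKO38. In Flox16, Flox17, Flox20 and Flox21 it was 30.1, 41.1, 53.0 and 49.0 FPKM. The groups met only where Flox16 fell below cKO12. The difference on the log2 scale was -0.92 (SE 0.20) and, without Flox16, -1.08 (SE 0.20). On the high-fat diet Klf9 was 20.5, 10.8, 7.03 and 19.7 FPKM in Ctrl1, Ctrl2, Ctrl3 and Ctrl5, and 32.1, 46.3, 42.0 and 41.7 FPKM in OE1 to OE4. Every OE library was above every Ctrl library, also above Ctrl1 and Ctrl5. Those libraries had an acinar share below that of OE and differed from OE in other cell markers. The log2 fold change was 1.56 (SE 0.46) with all libraries and 0.98 (SE 0.14) without Ctrl2 and Ctrl3. Klf9, Fkbp5 and Per1 were lower in cKO than in Flox and higher in OE than in Ctrl under all 18 alternatives run in each comparison. Alternatives that change only the variance estimate, the minimum mean or the replicate term leave a fold change as it is and could not differ. These genes were also named together after their values were seen, so the count is a description. With all libraries 86.9% and 84.2% of all genes went the same way. The values nearest to 0 were -0.54 and 0.98 for Klf9, -0.55 and 0.05 for Fkbp5, and -0.25 and 0.08 for Per1. Those of Fkbp5 and Per1 in OE came without Ctrl2 and Ctrl3 and were smaller than their standard errors (0.22 and 0.27).

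Per1, a repressor of the circadian clock whose promoter the receptor also acts on, was 7.34, 6.67, 8.32 and 4.88 FPKM in cKO8, cKO9, cKO12 and cKO38, and 6.19, 13.8, 12.04 and 11.5 FPKM in Flox16, Flox17, Flox20 and Flox21. Flox16 lay inside the cKO range, and the other Flox libraries lay above it. The log2 fold change was -0.61 (SE 0.23) and, without Flox16, -0.85 (SE 0.21). On the high-fat diet Per1 was 17.8, 6.80, 3.85 and 33.7 FPKM in Ctrl1, Ctrl2, Ctrl3 and Ctrl5, and 18.9, 28.4, 27.3 and 31.1 FPKM in OE1 to OE4. Ctrl5 was the highest of the 8 libraries and Ctrl3 the lowest, an 8.77-fold range within Ctrl against 1.64-fold within OE. The difference on the log2 scale was 1.16 (SE 0.56), and 0.08 (SE 0.27) without Ctrl2 and Ctrl3.

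Sgk1, the serum- and glucocorticoid-regulated kinase that controls ion channels, was 13.1, 17.4, 21.8 and 13.2 FPKM in cKO8, cKO9, cKO12 and cKO38 and 16.1, 40.8, 20.5 and 16.997 FPKM in Flox16, Flox17, Flox20 and Flox21. The groups overlapped, and Flox17 stood alone above the rest. The log2 fold change was -0.44 (SE 0.27), or -0.58 (SE 0.26) without Flox16. On the high-fat diet Sgk1 was 10.8, 8.83, 19.1 and 18.2 FPKM in Ctrl1, Ctrl2, Ctrl3 and Ctrl5, and 6.66, 8.62, 6.12 and 5.90 FPKM in OE1 to OE4. Unlike the other members, Sgk1 was lower in every OE library than in any Ctrl library, although Ctrl2 and OE2 were close. The difference on the log2 scale was -0.95 (SE 0.44), and -1.01 (SE 0.22) without Ctrl2 and Ctrl3.

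Dusp1, a phosphatase that switches off MAP kinases, had similar levels in both chow-fed groups. It was 24.7, 22.3, 14.8 and 17.4 FPKM in cKO8, cKO9, cKO12 and cKO38 and 18.2, 17.7, 33.5 and 24.8 FPKM in Flox16, Flox17, Flox20 and Flox21, with a log2 fold change of -0.23 (SE 0.21), or -0.33 (SE 0.22) without Flox16. The groups overlapped widely. Among Ctrl libraries the level was 65.9, 11.9, 9.91 and 105 FPKM in Ctrl1, Ctrl2, Ctrl3 and Ctrl5, a 10.6-fold range, while OE1 to OE4 were at 38.4, 57.8, 54.0 and 55.7 FPKM. The 2 acinar-poor Ctrl libraries were above every OE library and the 2 acinar-rich ones below every OE library. The difference on the log2 scale was 0.74 (SE 0.62) with all libraries and -0.70 (SE 0.22) without Ctrl2 and Ctrl3. The immediate early genes Fos and Nr4a1, picked after their values were seen, had the same split in Ctrl, with Fos at 123, 17.4, 20.6 and 156 FPKM and Nr4a1 at 41.4, 4.76, 3.46 and 69.6 FPKM in Ctrl1, Ctrl2, Ctrl3 and Ctrl5.

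**Figure D2:**
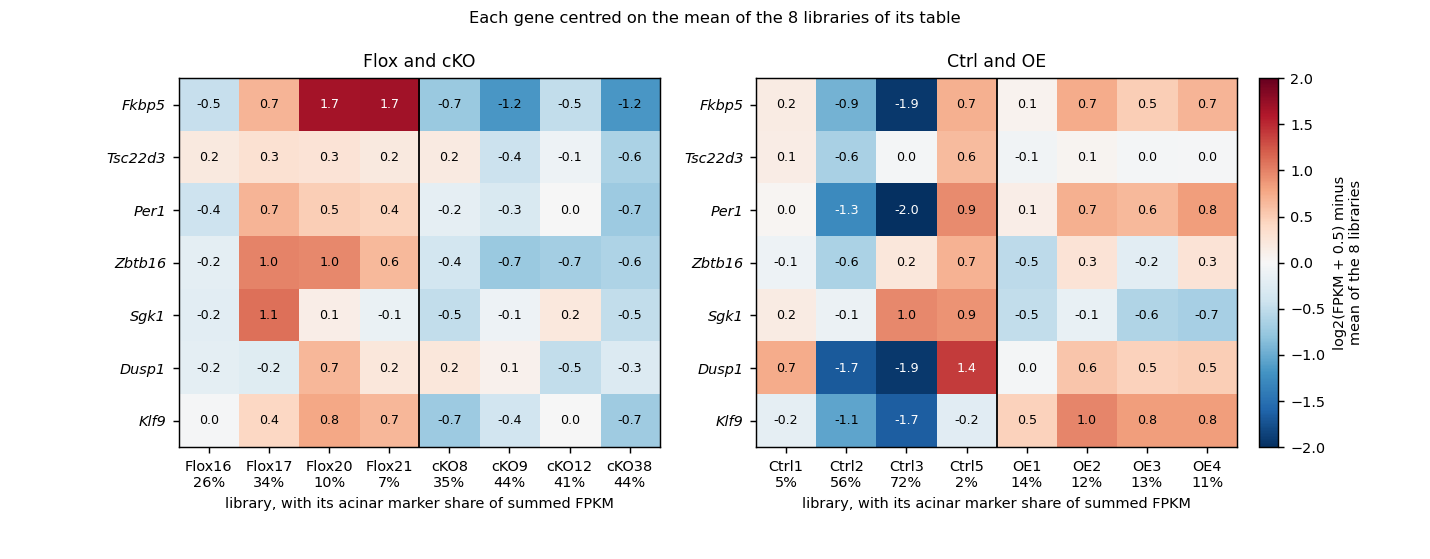
Log2(FPKM + 0.5) of each gene minus its mean over the 8 libraries of its table, by library, for the chow-fed (left) and high-fat (right) tables, with the acinar marker share in percent under each library name. Fkbp5, Per1, Dusp1 and Klf9 are lowest in Ctrl3, the library with the largest acinar share, and Flox16 is below the mean or near it for every gene but Tsc22d3.

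Read side by side, the chow-fed members lay lower in cKO than in Flox, by amounts from 0.23 to 1.78 on the log2 scale for the 6 tested. Their median log2 fold change was -0.55, against -0.34 over the 11804 genes tested, of which 86.9% were lower in cKO. So a lower value of a member is read here against that shift. Relative to the median gene, Fkbp5 was -1.44, Klf9 -0.58, Per1 -0.27, Tsc22d3 -0.15, Sgk1 -0.10 and Dusp1 0.12. A gene was called where the adjusted p in limma was under 0.05 and the absolute log2 fold change over 1. By that rule 0 of the 6 tested members were called, beside 1.31% of all genes in either direction and 0.974% called lower. At an unadjusted p under 0.05 there were 4 of 6, beside 41.5% of all genes. The groups did not overlap and cKO was lower for 2 of the 6, Fkbp5 and Tsc22d3, beside 15.4% of all genes, and cKO was higher without overlap for 0 of 6, beside 1.32%. Without Flox16 all 7 passed the minimum, and 3 were called lower, Fkbp5, Klf9 and Zbtb16, beside 2.82% of all genes. Zbtb16 passed the minimum only through the Flox libraries, where it is high, so its call was largely fixed by that minimum and is no support. Then 5 of the 7 did not overlap and were lower in cKO (20.9% of all genes), Sgk1 and Dusp1 being the exceptions. The median was -0.85, against -0.36 over all genes. It includes Zbtb16, at -1.47, and so cannot be compared directly with the -0.55 over 6 members. Other settings also moved the member calls. Fkbp5 was called lower without variance trend and robust fitting (1.28% of all genes), with 3 libraries per group (4.63%) and without Flox17 (3.06%). Without cKO8 (1.53%) or cKO38 (0.388%) Zbtb16 passed the minimum and was called, and without cKO12 (0.862%) both Zbtb16 and Klf9 were. The calls of Zbtb16 in these fits have the same limit as without Flox16. These counts describe the genes that were chosen with the data known and are not a test of them.

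Scaling each library by its median ratio to the others shifted the midpoint of all genes from -0.34 to -0.000862, and the members shifted with it. The members then read -1.41 for Fkbp5 (SE 0.40), -0.54 for Klf9 (SE 0.21), -0.25 for Per1 (SE 0.26), -0.13 for Tsc22d3 (SE 0.16), -0.07 for Sgk1 (SE 0.41) and, with the sign turned, 0.15 for Dusp1 (SE 0.17). After scaling 0 of the 6 were lower without overlap, beside 7.66% of all genes, so Fkbp5 and Tsc22d3 no longer separated the groups. Without Flox16 the scaled value of Fkbp5 was -1.83 (SE 0.16) and that of Klf9 -0.68 (SE 0.19), and of the 6 members tested Fkbp5 was called lower, beside 0.739% of all genes. Zbtb16 did not pass the minimum in that fit. With the acinar share as a term the fold change of Fkbp5 was -0.55, against -1.78 without it, that of Sgk1 -1.08 and that of Dusp1 0.39. So the order of the members changed and Fkbp5 lost much of its difference. The median of all genes was 0.08 in that fit, with 35% lower in cKO. The acinar share was larger in every cKO library (34.8% or more) than in any Flox library (34.0% or less). That term and the group can therefore hardly be told apart. Zbtb16 passed the minimum under 5 alternatives, in each through the Flox libraries, where it is high. Its lower value in cKO in these fits is therefore no support.

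In the high-fat table the members differed in direction. Of the 6 tested, 4 lay higher in OE (Klf9, Per1, Fkbp5 and Dusp1) and 2 lower (Sgk1 and Tsc22d3). The median log2 fold change was 0.86, against 0.44 over the 12132 genes tested, of which 84.2% were higher in OE. By limma, 0 of the 6 were called, beside 0.033% of all genes, which is 4 genes, and 2 of 6 had an unadjusted p under 0.05, beside 6.4% of all genes. Klf9 was higher without overlap (5.61% of all genes) and Sgk1 lower without overlap (0.964% of all genes). Relative to the median gene the values were 1.12 for Klf9, 0.72 for Per1, 0.56 for Fkbp5, 0.30 for Dusp1, -0.48 for Tsc22d3 and -1.39 for Sgk1. Median-of-ratios scaling brought the median of all genes to -0.01 and kept Klf9 at 1.02 (SE 0.16) and Sgk1 at -1.48 (SE 0.53). When Ctrl2 and Ctrl3 were left out, the median of the members was -0.18, beside -0.21 over all genes. Klf9 was then the single member higher without overlap (6.77% of all genes), while Sgk1, Dusp1 and Tsc22d3 were lower without overlap (41.4% of all genes) and Sgk1 was called lower (4.61% of all genes). With the acinar share as a term the median of the members was 0.010, beside -0.04 over all genes, with 3 members higher and 3 lower. Klf9 was called higher in that fit (1.13, SE 0.15), beside 0.429% of all genes.

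**Figure D3:**
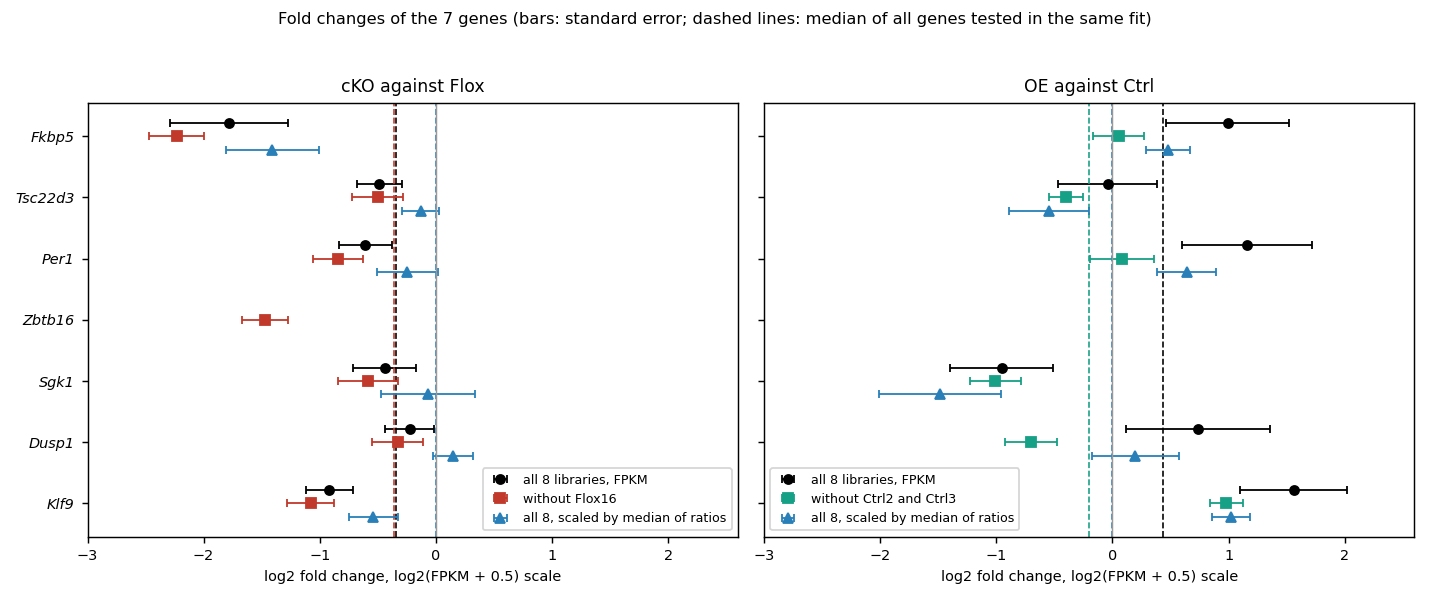
Log2 fold change of each gene on the log2(FPKM + 0.5) scale, with its standard error as a bar, for cKO against Flox (left) and OE against Ctrl (right), with all libraries, without the libraries that stood apart, and after median-of-ratios scaling; dashed lines give the median of all genes in each fit. Fkbp5 is the farthest below the median gene in cKO, at -1.44 relative to it, and in OE Klf9 and Sgk1 lie on opposite sides under all 3 settings. Zbtb16 appears only where it passed the minimum mean of 0.5 FPKM.

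Across the 4 groups, by group median, Fkbp5 ran from Flox (45.2 FPKM) through OE (19.9) and Ctrl (10.6) to cKO (9.47), and each neighbouring pair overlapped. Klf9 ran from Flox (45.1) and OE (41.9), which overlapped, to cKO (20.95) and Ctrl (15.3), which also overlapped, with a gap between OE and cKO. Per1 was highest in OE (27.8) and Dusp1 also (54.9), and all their neighbouring groups overlapped. The Tsc22d3 order was Flox (8.47), cKO (5.87), Ctrl (5.12) and OE (4.80), with a gap after Flox only. Sgk1 ran in the order Flox (18.7), cKO (15.3), Ctrl (14.5) and OE (6.39) with a gap before OE only, and Zbtb16 in the order Flox (1.01), Ctrl (0.423), OE (0.405) and cKO (0.0470) with no gap. The 2 tables were made separately, so these orders across diets are descriptive.

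The receptor itself, its partners and the enzymes that make or remove the active hormone were described as a list of 13 genes, 12 of which passed the minimum. Nr3c1, the glucocorticoid receptor, was 7.83 to 9.13 FPKM in cKO and 11.5 to 13.6 FPKM in Flox, without overlap. Its log2 fold change was -0.53 (SE 0.17, adjusted p = 0.044, limma), under the fold minimum, -0.56 (adjusted p = 0.042) without Flox16, and -0.16 (adjusted p = 0.349) after median-of-ratios scaling. Nr3c2, the mineralocorticoid receptor, which binds the same hormones, was -0.53 (adjusted p = 0.059), -0.61 (adjusted p = 0.035) without Flox16, and -0.24 (adjusted p = 0.213) after scaling. Hsd11b1, which regenerates active glucocorticoid inside cells, was low, at 0.165 to 0.526 FPKM in cKO and 0.483 to 1.20 FPKM in Flox. Its log2 fold change was -0.73 (SE 0.21, adjusted p = 0.034), -0.88 (adjusted p = 0.0029) without Flox16, and -0.53 (adjusted p = 0.121) after scaling. Hsd11b2, which inactivates the hormone, was listed at 0 in 3 of the 8 chow-fed libraries, reached 0.348 FPKM at most and was not tested.

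All 12 tested genes of this list were lower in cKO, as were 86.9% of all genes. Their median log2 fold change was -0.68, against -0.34 over all genes, and -0.32 after scaling, against -0.000862. Of the 12, 3 were called, beside 0.974% of all genes called lower, each a chaperone of the receptor complex. Stip1, which joins Hsp70 to Hsp90, fell by 1.40 in cKO on the log2 scale (SE 0.22, adjusted p = 0.0074, limma). Hsp90aa1, the inducible Hsp90, fell by 1.30 (SE 0.30, adjusted p = 0.034). Fkbp4, the co-chaperone that competes with Fkbp5 in the complex, fell by 1.09 (SE 0.20, adjusted p = 0.014). Fkbp4 was 54.5, 41.5, 49.5 and 39.6 FPKM in cKO8, cKO9, cKO12 and cKO38, and 101, 61.6, 129 and 115 FPKM in Flox16, Flox17, Flox20 and Flox21. Here Flox16 lay with the other Flox libraries, and Flox17, the Flox library with the largest acinar share, was the lowest of them. The same 3 genes were called without Flox16, and Stip1 alone was called after scaling (log2 fold change -1.02, adjusted p = 0.022). With scaling and Flox16 left out 0 of the 12 were called, with Stip1 at -0.96, Hsp90aa1 at -0.77 and Fkbp4 at -0.67. In OE against Ctrl 0 of 12 were called by limma, with 4 at an unadjusted p under 0.05, beside 6.4% of all genes. Higher in OE were 11 of 12, as were 84.2% of all genes, or 8 of 12 without Ctrl2 and Ctrl3, beside 25.8%. With all libraries the largest differences were those of Hsd11b1 (-1.35), Ncoa2 (1.22), Ncoa1 (1.09) and Hsp90ab1 (0.997), each with an adjusted p of 0.591. Without Ctrl2 and Ctrl3 these were -1.02, 0.44, 0.36 and 0.17. Nr3c1 was 7.72 to 9.06 FPKM in OE and 9.11, 4.18, 2.53 and 8.43 FPKM in Ctrl1, Ctrl2, Ctrl3 and Ctrl5.

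A second list held 24 other genes that glucocorticoids are known to induce, of which 21 passed the minimum in the chow-fed table. Of these, 17 lay lower and 4 higher in cKO, where 86.9% of all genes lay lower. The median log2 fold change was -0.63, against -0.34 over all genes, and 1 was called, beside 0.974% of all genes called lower. That gene was Cdkn1a, the cell cycle inhibitor p21, at 14.0 to 18.4 FPKM in cKO and 44.3, 23.2, 37.5 and 42.7 FPKM in Flox16, Flox17, Flox20 and Flox21. Its log2 fold change was -1.08 (SE 0.20, adjusted p = 0.012), and it was not past the fold minimum without Flox16 (-0.98, adjusted p = 0.00108) or after scaling (-0.71, adjusted p = 0.040). At an unadjusted p under 0.05 there were 11 of 21, beside 41.5% of all genes.

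Leaving out Flox16 raised the number called in that list from 1 to 7, of which 6 were lower and 1 higher in cKO, while the number over all genes rose from 155 to 491. Over all genes 2.82% were then called lower and 1.34% higher. Fam107a, a small actin-binding stress protein, fell by 2.32 (SE 0.25, adjusted p = 2.39e-07). Errfi1, an inhibitor of EGF receptor signalling, fell by 1.82 (adjusted p = 0.000139). Rasd1, a Ras-like protein first found as dexamethasone-induced, fell by 1.68 (adjusted p = 0.030). Glul, glutamine synthetase, fell by 1.29 (adjusted p = 2.07e-07), with 64.7 to 88.5 FPKM in cKO, 75.8 FPKM in Flox16 and 163, 209 and 206 FPKM in Flox17, Flox20 and Flox21. Anxa1, an anti-inflammatory annexin, fell by 1.17 (adjusted p = 0.000194). Nfkbia, the inhibitor of NF-κB, fell by 1.08 (adjusted p = 0.000242). Crispld2 was the gene called higher, but it is among the genes by which Flox16 was seen to stand apart, so its difference without that library is no test. With scaling and Flox16 left out 3 were called lower, Fam107a, Errfi1 and Rasd1, and Glul, Anxa1 and Nfkbia were not called. With all 8 libraries these 7 genes had adjusted p-values from 0.042 (Anxa1, under the fold minimum) to 0.124 (Crispld2), and none was called. In Flox16 each of the 6 lower genes lay below the other 3 Flox libraries, as Fkbp5, Per1, Zbtb16, Sgk1 and Klf9 did. For Sgk1 the margin was small, at 16.1 FPKM against 16.997 FPKM in Flox21. The 6 were not called with all 8 libraries, and leaving out Flox16 favours genes that are low in it. Their place in Flox16 and their adjusted p-values without it are therefore no support.

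In OE against Ctrl, 23 genes of that list were tested, 14 lay higher and 9 lower, where 84.2% of all genes lay higher. By limma 0 were called, with 8 at an unadjusted p under 0.05, beside 6.4% of all genes. The median log2 fold change was 0.31, against 0.44 over all genes. After scaling 9 lay higher and 13 lower, and without Ctrl2 and Ctrl3 the split was 11 and 11 and the median 0.07, against -0.21 over all genes, so the order of both medians turned. The largest differences were those of Cebpd (1.14), Crispld2 (-1.13), Cdkn1a (1.12) and Lcn2 (-1.10), each with an adjusted p of 0.591. Without Ctrl2 and Ctrl3, 1 gene was called higher and 1 lower, beside 81 and 568 of the 12311 genes tested. Klf15, a Krüppel-like regulator of metabolic genes, rose by 1.01 (SE 0.18, adjusted p = 0.010), and Angptl4, a lipoprotein lipase inhibitor, fell by 1.19 (SE 0.22, adjusted p = 0.011). With all libraries Klf15 was at 0.31 (adjusted p = 0.716) and Angptl4 at -0.78 (adjusted p = 0.591). After scaling they were at -0.25 (adjusted p = 0.855) and -1.03 (adjusted p = 0.096), so the sign of Klf15 turned.

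Among 10 inflammatory genes that glucocorticoids are known to repress, Il1b was the single gene above the minimum in the chow-fed table, at 0.530 to 1.54 FPKM in cKO and 0.332 to 2.70 FPKM in Flox. Its log2 fold change was -0.19 (SE 0.45, adjusted p = 0.750), and -0.33 (adjusted p = 0.645) without Flox16. Of the 10, 5 were tested on the high-fat diet, and 0 were called by limma, with 0 at an unadjusted p under 0.05. Of these, Cxcl10 was at 1.17, Cxcl1 at -0.49, Ccl2 at -0.42 and Cxcl2 at -0.38 on the log2 scale. Il1b was 5.55, 0.482, 0.0727 and 10.5 FPKM in Ctrl1, Ctrl2, Ctrl3 and Ctrl5 and 1.29 to 2.06 FPKM in OE. With all libraries its log2 fold change was -0.14 (SE 0.77, adjusted p = 0.919, limma), and after scaling -0.27 (adjusted p = 0.823). Without Ctrl2 and Ctrl3 it fell by 1.87 in OE (SE 0.25, adjusted p = 0.0052), where 4.61% of all genes were called lower. Macrophage markers summed to 163 and 540 FPKM in Ctrl1 and Ctrl5, against 86.2 to 111 in OE, and their part in this value was not tested.

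Per1 was set beside the other clock genes, 15 of which were tested in each table. In cKO against Flox 10 lay higher and 5 lower, or 8 and 7 without Flox16, where 86.9% and 85.9% of all genes lay lower. The median was 0.10, against -0.34 over all genes, and 2 were called, beside 0.974% of all genes called lower. Cry2, a repressor of the clock, fell by 1.44 (SE 0.39, adjusted p = 0.048), at 22.1, 23.2, 34.1 and 16.2 FPKM in cKO8, cKO9, cKO12 and cKO38 and 29.4, 75.7, 87.9 and 82.2 FPKM in Flox16, Flox17, Flox20 and Flox21. Nfil3, a repressor in the output of the clock, fell by 2.16 (SE 0.53, adjusted p = 0.044). Of the 10 that lay higher, Dbp had the largest difference, at 2.00 (SE 0.65, adjusted p = 0.077), without overlap and not called. Tef was at 0.65 and Per3 at 0.60. After scaling the groups of Dbp overlapped (2.35, adjusted p = 0.091). With 3 libraries per group Dbp was called (2.67, adjusted p = 0.0017), where 153 of 11794 genes were called higher. Without Flox16 Cry2 stayed called (-1.80, adjusted p = 1.73e-08) and Nfil3 did not (-2.19, adjusted p = 0.062), its groups still without overlap, while after scaling Nfil3 stayed called (-1.83, adjusted p = 0.047) and Cry2 did not (-1.06, adjusted p = 0.115). In OE against Ctrl all 15 lay higher, or 12 after scaling and 9 without Ctrl2 and Ctrl3, beside 84.2%, 49.3% and 25.8% of all genes. The median was 0.89, against 0.44 over all genes. By limma 0 were called, with 6 at an unadjusted p under 0.05, beside 6.4% of all genes. Cry2 was at 1.88, Nr1d1 at 1.86, Ciart at 1.79 and Bhlhe41 at 1.23, each with an adjusted p of 0.591. Cry2 was 52.2, 17.9, 7.46 and 57.2 FPKM in Ctrl1, Ctrl2, Ctrl3 and Ctrl5 and 61.2, 104, 99.95 and 126 FPKM in OE1 to OE4, so that, as for Klf9, every OE library was above every Ctrl library.

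Dusp1 was set beside 15 tested immediate early genes and, with the chaperones above in view, 9 heat shock genes. Of the immediate early genes 8 lay lower and 7 higher in cKO, where 86.9% of all genes lay lower. This became 13 and 2 without Flox16 and 6 and 9 after scaling, beside 85.9% and 50.2% of all genes lower. By limma 0 were called, with 3 at an unadjusted p under 0.05, beside 41.5% of all genes. Klf10 was at 1.05, Junb at -0.72, Myc at 0.55 and Btg2 at -0.49. In OE against Ctrl 10 lay higher and 5 lower, which became 5 higher and 10 lower after scaling, beside 84.2% and 49.3% of all genes higher. Again 0 were called, with 1 at an unadjusted p under 0.05, beside 6.4% of all genes. Klf10 was at 2.16, Junb at 0.90, Nr4a1 at 0.84 and Egr1 at 0.68. Without Ctrl2 and Ctrl3, 15 of the 16 immediate early genes then tested lay lower, where 74.2% of all genes did. Junb was then at -0.55, Nr4a1 at -0.94 and Egr1 at -0.46, with Klf10 still higher at 0.81. Of the 9 heat shock genes all lay lower in cKO, or 8 after scaling, beside 86.9% and 50.2% of all genes. Hspa8 (-1.09, adjusted p = 0.012) and Hsph1 (-1.44, adjusted p = 0.020) were called by limma, beside 0.974% of all genes called lower. Both were also called without Flox16 (2.82% of all genes), and Hsph1 alone after scaling (-1.06, adjusted p = 0.047). With scaling and Flox16 left out 0 of the 9 were called. In OE against Ctrl 5 lay higher and 4 lower, or 2 and 7 after scaling, beside 84.2% and 49.3% of all genes higher. Of the 9, 0 were called by limma, with 0 at an unadjusted p under 0.05, beside 6.4% of all genes. Hspa8 was at 0.70, Hspd1 at 0.61, Hspb1 at -0.53 and Hspa1a at -0.41. Without Ctrl2 and Ctrl3 all 9 lay lower, where 74.2% of all genes did, with Hspa8 at -0.06 and Hspd1 at -0.10. In that fit 2 immediate early genes (Atf3 and Klf2) and 3 heat shock genes (Hspb1, Hspa1a and Dnajb1) were called, all lower in OE, where 4.61% of all genes were.

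**Figure D4:**
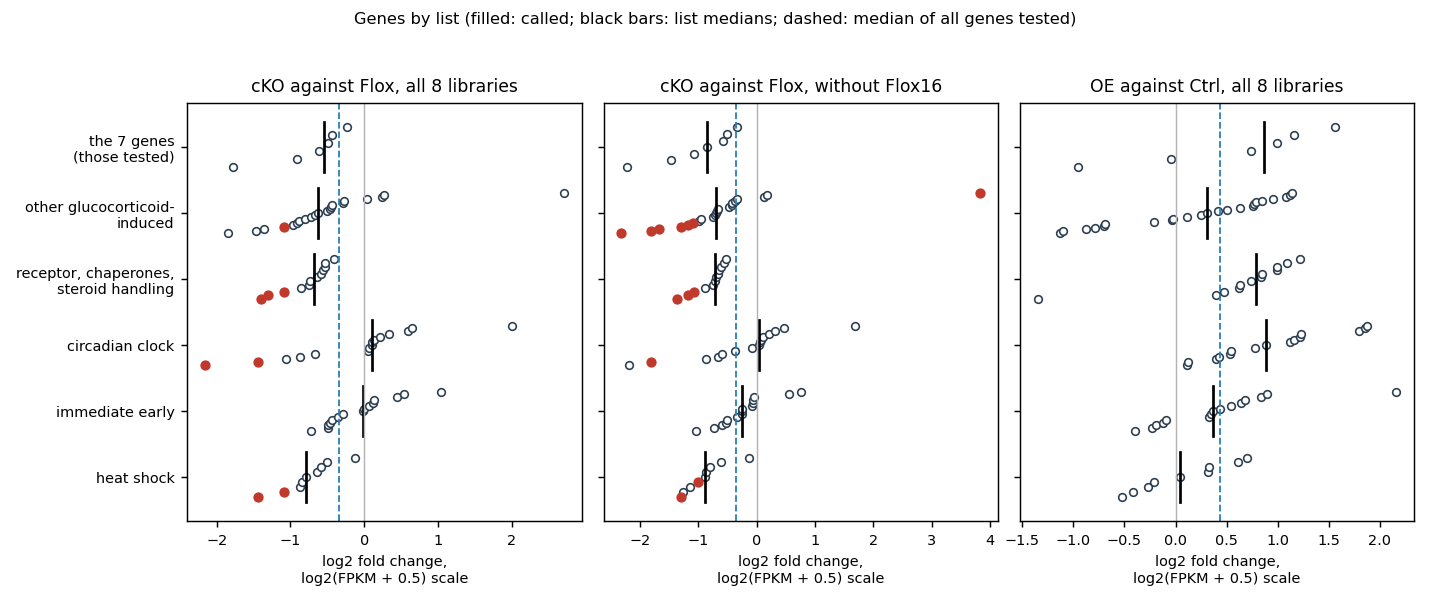
Log2 fold change of each tested gene on the log2(FPKM + 0.5) scale, by list, for cKO against Flox with all libraries and without Flox16 and for OE against Ctrl; filled points are genes called outside the 7, black bars are list medians, and the dashed line is the median of all genes tested. Without Flox16 the number of other glucocorticoid-induced genes called goes from 1 to 7, and in OE, with all 8 libraries, no gene of these lists is called.

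The genes most like the members were sought over the 16 libraries as those with the smallest root-mean-square difference in log2(FPKM + 0.5), centred within each table. Nearest to the mean of the 7 genes, among 11547 candidates, were Rab31 (0.165), Zdhhc14 (0.177) and Lpin2 (0.188). Rab31, a small GTPase of vesicle traffic, was 1.48 to 2.10 FPKM in cKO, 2.33 FPKM in Flox16, 4.47 to 5.83 FPKM in the other Flox libraries and 1.31 FPKM in Ctrl3. The gene nearest to Fkbp5 was Mdm1 (0.219), at 14.2 to 20.7 FPKM in cKO, 27.0 FPKM in Flox16 and 66.1, 132 and 159 FPKM in Flox17, Flox20 and Flox21. Per1 was nearest to Tox (0.203), Dusp1 to Adamts1 (0.183), Tsc22d3 to Ndc1 (0.174), Klf9 to 6330403K07Rik (0.241), Sgk1 to Capg (0.319) and Zbtb16 to Nudt4 (0.320). Among the members themselves, Per1 and Klf9 were nearest to each other (0.395), and Fkbp5 was nearest to Klf9 (0.534). Of the 7 genes, Fkbp5 had the largest spread over the libraries (SD 1.005 on the centred log2 scale) and Tsc22d3 the smallest (SD 0.33).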

How the data were processed

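The authors sequenced islet RNA and deposited FPKM, read fragments scaled to transcript length and to the mapped reads of the library, in a table for each pair of groups. The labels name the build mm10, and the aligner, counter and annotation were not given in the sources used here. The deposited values carry no read totals, so no counting interval is given. The lowest values of a library come in equal steps, and the steps put relative depth at 0.942 to 1.07 of the median in the chow-fed table and 0.841 to 1.08 in the high-fat table. A value of Zbtb16 is given in steps where it lay within 0.05 of a whole number of them. Nothing says that libraries of a group came from separate mice, so p-values measure the spread between libraries, which may be technical.

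Groups were taken from the sample titles, and no column was left out. Within each table, every gene averaging 0.5 FPKM or more in the 8 libraries was fitted on log2(FPKM + 0.5) with limma 3.58.1 in R 4.3.3, using empirical Bayes with a variance trend and robust fitting. The p-values are two-sided and were adjusted by Benjamini-Hochberg across the genes fitted. Called genes had an adjusted p under 0.05 and changed by more than 1 on the log2 scale, as in the study. The fit was run on simulated data with independent noise for each gene. These held no shift across all genes and no library set apart, so they cannot say how the fit behaves under either. Groups do not overlap where every library of a group lies beyond every library of the other.

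The members, the lists and the libraries left out were chosen with earlier results of these data known. The named genes are the members, both receptors, both hydroxysteroid dehydrogenases, the genes of each list that were called or, where none was, up to 4 with the largest fold change, Vtcn1, and the genes nearest to the members. Tph1, Fos, Atf3, Klf2, Dnajb1, Dbp, Tef, Per3 and the use of Nr4a1 beside Dusp1 fall outside that rule. Alternatives were other pseudocounts (1 and 0.1), every gene or a minimum mean of 1 FPKM, median-of-ratios scaling, plain empirical Bayes, a replicate block, 3 libraries per group, the acinar share as a term, and each library left out. Protein, serum and quantitative PCR data were not analysed here.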

Additional observations from a re-analysis of the deposited data

Results flagged for a closer look

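Among 44 groups of 4 libraries examined for a library far from the others, 2 had a gap to the nearest library larger than Dixon's 95% critical value for their range, and chance gives such a gap in about 1 group in 20. Dusp1 in OE1 was 38.4 FPKM, against 54.0 to 57.8 FPKM in OE2, OE3 and OE4, a gap of 0.831 of the range. Hsd11b2 was 0.132 FPKM in Ctrl5 and was listed at 0 in the other 3 Ctrl libraries.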

How the results depend on the processing

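In cKO against Flox, 155 genes were called, 40 higher and 115 lower. The number was 84 with a pseudocount of 1, 307 with 0.1, 272 without variance trend and robust fitting, and 699 with the 3 libraries per group that the study's heatmaps use. With every gene above 0 kept and with the acinar share as a term limma called 0, against 349 and 51 genes at an unadjusted p under 0.05 and past the fold minimum. Median-of-ratios scaling called 36, 26 higher and 10 lower, and 309 without Flox16. Leaving out each library in turn gave 18 (without cKO9) to 507 (without Flox17), with 491 without Flox16, 60 without cKO38, 47 without Flox20 and 44 without Flox21. The member medians were then -0.85 to -0.47 and include Zbtb16 where it passed the minimum. The median of the members was -0.19 after scaling. In OE against Ctrl, 4 genes were called, 10 with every gene kept, 262 with the acinar share as a term, 649 without Ctrl2 and Ctrl3, and 4 to 5 with each library left out. The median of the members was 0.010 with the acinar share, -0.18 without Ctrl2 and Ctrl3, and 0.36 (without Ctrl3) to 1.36 (without Ctrl5) with each library left out. The causes were not tested.

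Of 113 alternative member values in cKO 107 moved by less than the spread between replicates, and of 108 in OE 101 did. Plain empirical Bayes, the replicate block and the other minimum means leave a fold change as it is, so part of these counts was fixed in advance. The spread between replicates also includes Flox16, Ctrl2 and Ctrl3, which widen it. These counts are therefore no measure of how firm the values are. Dusp1 turned higher in cKO in 3 alternatives, and in OE Dusp1 turned lower in 2 and Tsc22d3 higher in 2. The settings that leave out Flox16 after scaling, or Ctrl2 and Ctrl3 together, were chosen after seeing the data.

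The titles do not say whether a replicate number marks a shared mouse or batch, and the deviations of same-numbered libraries correlated between -0.215 and 0.122. With 4 libraries per group such correlations cannot settle whether same-numbered libraries shared a batch. With the replicate block 268 genes were called in cKO, Fkbp5 among them, and 4 in OE, and only OE4 correlated best with the control of its own number. Depth in reads is unknown, which leaves the counting error of Zbtb16 and other low genes open.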
